A study of Mus musculus with 9 samples.

Results

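The genes described here are 10 that make, sense and carry out the hormonal control of calcium in the kidney, followed in mice without the clock transcription factor Bmal1: Cyp27b1, Cyp24a1, Vdr, Pth1r, Kl, Trpv5, S100g, Calb1, Slc8a1 and Casr. They were taken by symbol, and all 10 were found among the 23282 gene symbols of the deposited tables. The study profiled whole kidney from C57BL/6 mice in 5 Bmal1 knockout libraries (Bmal1 -/-, KO) and 4 wild-type libraries (WT) by 3′ mRNA sequencing, in which each transcript gives about 1 tag near its poly(A) tail. The labels do not give the sex, age, hour of sampling, deleted exons or whether the libraries came from separate animals; p-values therefore speak only of the spread seen among the libraries.

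Active vitamin D, calcitriol, is made in the proximal tubule by the 1α-hydroxylase CYP27B1 and broken down by the 24-hydroxylase CYP24A1. It acts through the nuclear receptor VDR, which in the kidney is known to raise Cyp24a1 and the calcium carriers of the distal nephron. Parathyroid hormone (PTH), acting through PTH1R, raises Cyp27b1 and lowers Cyp24a1, while FGF23, acting through an FGF receptor with Klotho as coreceptor, does the opposite. In the late distal convoluted and connecting tubule, calcium enters through TRPV5, is carried by the calbindins CALB1 and S100G, and leaves through the exchanger SLC8A1 and calcium pumps. The calcium-sensing receptor CASR sits mainly in the thick ascending limb.

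The deposited values are log2(x + 1), where x is a read count adjusted by the authors towards a common library size, and levels are also given as CPM, meaning x per 1000000 of a library's total. Totals of x ran over 11765219 to 13486444. Arntl, the gene symbol of Bmal1, had 5.95, 5.65, 5.98, 5.80 and 5.86 on the log2 scale in KO, against 6.68, 6.26, 7.06 and 6.76 in WT, a difference of -0.84 (SE 0.21, limma adjusted p = 0.0112). A tag outside the deleted part would still be read, so this does not check the genotype labels. Kidney markers were present in all 9 libraries, with the 14 proximal tubule markers summing to at least 43000 CPM. That sum was lower in all 5 KO libraries, at 44700 ± 1140 CPM (SD, n = 5) in KO against 66200 ± 4650 CPM (SD, n = 4) in WT (exact permutation p = 0.00794, two-sided, the smallest that splits of 9 libraries into 5 and 4 allow; 0.0583 adjusted over 11 library measures). Of these markers 7 of 14 fell, none rose, and the median log2 fold change was -0.60, where 8.20% of all tested genes fell. The abundant Kap, an androgen-regulated protein, made up most of the sum, and without it the other markers summed to 15800 ± 1530 CPM in KO and 21800 ± 1520 CPM in WT (SD, n = 5 and 4; exact permutation p = 0.00794, adjusted 0.0583), a sum chosen after the data were seen. Kap itself had -0.67 (SE 0.23, limma adjusted p = 0.0604). It was called lower in 6 of 21 alternatives, with log2 fold changes of -0.76 to 0.00 over all 21, the last under quantile normalization, and limma adjusted p = 0.00067 with the robust prior. Quantile normalization gives a gene of the same rank in every library the same value, so the 0.00 does not speak of the level of Kap. The acyl-CoA synthetase Acsm2 had -0.59 (SE 0.15, adjusted p = 0.0122 by limma), while the water channel Aqp1, named after its value was seen, had 0.17 and was called in none of the alternatives. In bulk tissue, fewer cells of a type and less RNA per cell cannot be told apart.

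The breakdown enzyme of vitamin D, its receptor, the PTH receptor and Klotho fell in KO kidneys, while both calbindins rose. Of the 9 genes that passed the filter on low values (x of at least 10 in at least 4 libraries), 4 fell and 2 rose at a limma p under 0.05 after Benjamini-Hochberg adjustment over 13481 tested genes. Over all tested genes the same rule called 14.4%, with 8.20% lower and 6.16% higher. Among the 9, all KO libraries lay below all WT libraries in 3 and above them in 2, where the same held for 8.46% and 5.86% of all tested genes. The 3 genes without a call, Cyp27b1, Slc8a1 and Casr, did not pass, and Trpv5 was below the filter and not tested. The median over the 9 was -0.18 on the log2 scale, beside 0.0002 over all tested genes, since decreases and increases met within the group.

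**Figure D1:**
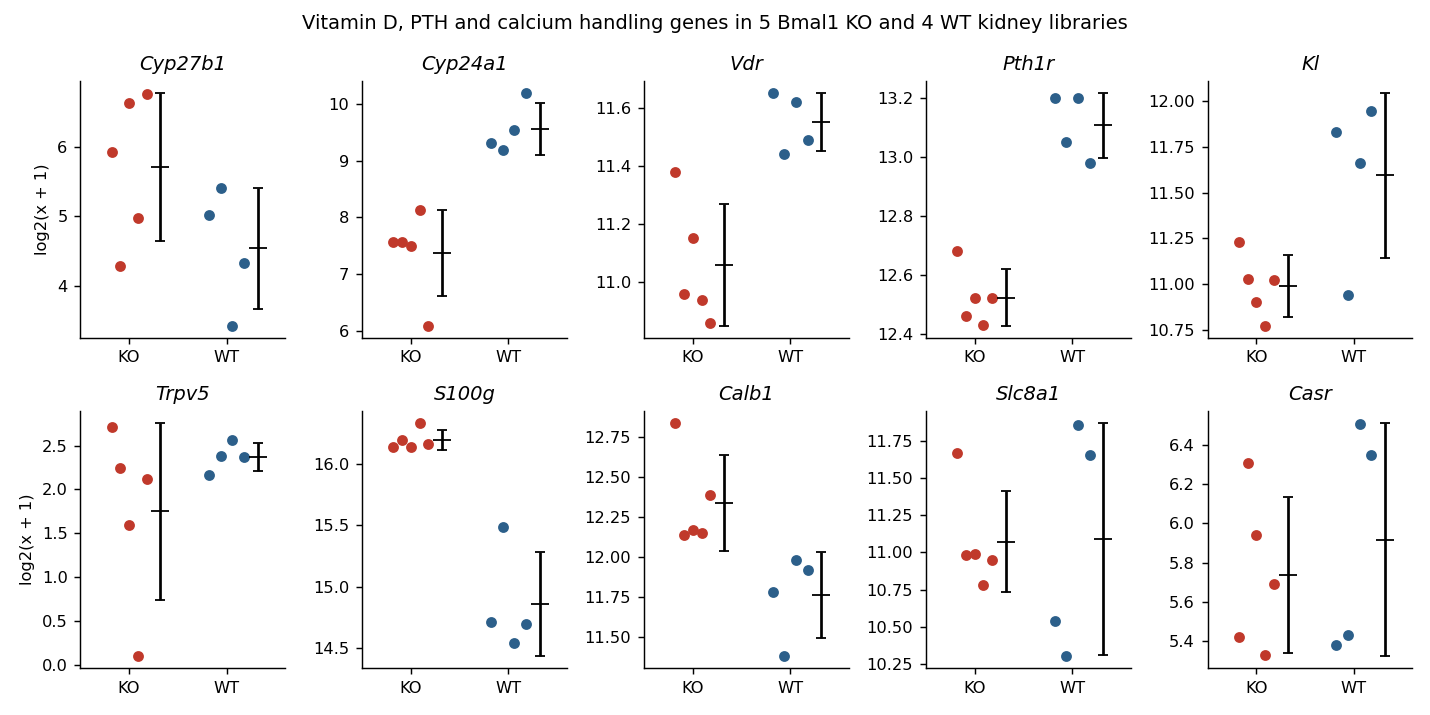
Deposited log2(x + 1) values of the 10 genes in each library, KO in red and WT in blue, each panel with its own vertical scale. Points are libraries and the black bars give the mean ± SD (n = 5 KO, n = 4 WT). Cyp24a1, Vdr and Pth1r lie lower in every KO library, and S100g and Calb1 higher in every KO library, than in any WT library.

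Cyp24a1 (chromosome 2, 170482708 to 170497145, - strand, GRCm38), the enzyme that inactivates calcitriol, showed the largest difference of the group. On the log2 scale it stood at 7.57, 7.57, 7.50, 8.13 and 6.08 in KO libraries 1 to 5, against 9.31, 9.18, 9.54 and 10.2 in WT libraries 1 to 4. Every KO library lay below every WT library, and KO 5 lay lowest of all 9. The level was 14.6 ± 5.68 CPM in KO and 61.5 ± 22.3 CPM in WT (SD, n = 5 and 4). This gave a log2 fold change of -2.19 (SE 0.30; 95% interval -2.81 to -1.57, limma adjusted p = 5.7e-05), so that WT had 4.56 times the KO level. This decrease was larger than that of any of the 14 proximal tubule markers, of which the lowest was -1.32 in the organic anion transporter Slc22a8. An exon of Cyp24a1 overlaps Pfdn4 on the other strand by 83 bases, away from the annotated 3′ end of Cyp24a1.

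Cyp27b1 (chromosome 10, 127048250 to 127053006, + strand), the activating enzyme, was low and variable. Its log2 values were 5.92, 4.28, 6.62, 4.97 and 6.75 in KO, against 5.02, 5.40, 3.42 and 4.32 in WT. The highest 3 libraries were KO and the lowest was WT 3, but the genotypes overlapped. The level was 5.15 ± 3.34 CPM in KO and 1.95 ± 1.01 CPM in WT (SD, n = 5 and 4), and the log2 fold change was 1.17 (SE 0.49, 95% interval 0.14 to 2.19, limma adjusted p = 0.125). It passed without KO 2 (1.52, adjusted p = 0.0385) and without WT 2 and KO 4 together (1.64, adjusted p = 0.0456), and in none of the other 18 alternatives in which it was tested.

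Set side by side within a library, log2 Cyp24a1 minus log2 Cyp27b1 was 1.65, 3.30, 0.88, 3.16 and -0.67 in KO, against 4.28, 3.78, 6.12 and 5.88 in WT. Every WT library thus held more of the breakdown enzyme's transcript relative to the activating one's than any KO library. KO 5, with the lowest Cyp24a1 and the highest Cyp27b1, was the only library of the 9 in which Cyp27b1 exceeded Cyp24a1.

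**Figure D2:**
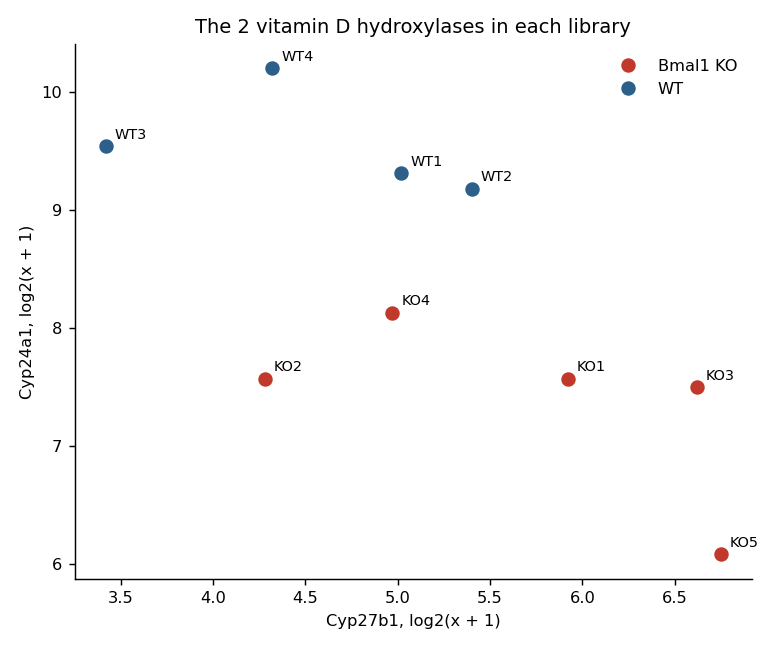
Cyp24a1 (vertical axis) against Cyp27b1 (horizontal axis), both as deposited log2(x + 1), 1 point per library, 5 KO in red and 4 WT in blue. The genotypes separate along the Cyp24a1 axis and overlap along the Cyp27b1 axis; KO5 lies at 6.75 for Cyp27b1 and 6.08 for Cyp24a1.

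Vdr (chromosome 15, 97854425 to 97910630, - strand), the receptor through which calcitriol acts, fell by a small amount. Deposited log2 values were 11.38, 10.96, 11.15, 10.94 and 10.86 in KO, against 11.65, 11.44, 11.62 and 11.49 in WT, without overlap, KO 1 coming closest to WT. The log2 fold change was -0.49 (SE 0.11, limma adjusted p = 0.00572), with 175 ± 28.2 CPM in KO and 235 ± 22.5 CPM in WT (SD, n = 5 and 4).

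Pth1r (chromosome 9, 110722085 to 110747145, - strand), the G protein-coupled receptor for PTH and PTH-related protein, is best known in the kidney for the proximal tubule, where it controls phosphate uptake and Cyp27b1. Log2 values were tight within each genotype, at 12.68, 12.46, 12.52, 12.43 and 12.52 in KO, against 13.20, 13.05, 13.20 and 12.98 in WT. The genotypes did not overlap, and the difference was -0.58 (SE 0.10; limma, adjusted p = 0.000576), with 481 ± 44.7 CPM in KO and 692 ± 68.4 CPM in WT (SD, n = 5 and 4). The decreases of Vdr and Pth1r are close to the median of -0.60 over the proximal tubule markers. Those markers did not move together: they ran from -1.32 in Slc22a8 to 0.17 in Aqp1, and 7 of 14 were not called. The part of the marker decreases in Vdr and Pth1r was not tested. Pth1r shares 95 exon bases with Myl3 on the other strand, away from its annotated 3′ end.

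Kl (chromosome 5, 150952607 to 150993817, + strand) encodes Klotho, the coreceptor for FGF23, made mainly in the distal tubule. KO libraries 1 to 5 had log2 values of 11.23, 11.03, 10.90, 10.77 and 11.02, against 11.83, 10.94, 11.66 and 11.95 in WT 1 to 4. WT 2 fell inside the KO range, and the other 3 WT libraries lay above it. The log2 fold change was -0.61 (SE 0.16, limma adjusted p = 0.016), with 167 ± 23.8 CPM in KO and 252 ± 73.8 CPM in WT (SD, n = 5 and 4). The call depended on settings: it was lost without WT 1 (-0.53, adjusted p = 0.0587), without WT 4 (-0.49, adjusted p = 0.0696), with 1 prior variance for all genes (adjusted p = 0.0915), and with the ribosomal RNA precursor Rn45s as a covariate (-0.37, adjusted p = 0.0782). Rn45s took 10.4% ± 2.92 of x in KO and 7.43% ± 2.71 in WT (SD, n = 5 and 4; exact permutation p = 0.175, two-sided), with 11.3% in WT 2, the WT library lowest in Kl.

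S100g (chromosome X, 162961992 to 162964599, - strand) encodes calbindin-D9k, a small calcium-binding protein with a pair of EF-hands. It was by far the most abundant transcript of the group, at 6130 ± 215 CPM in KO and 2380 ± 684 CPM in WT (SD, n = 5 and 4). Library by library, log2 values were 16.14, 16.20, 16.14, 16.34 and 16.17 in KO, against 14.71, 15.49, 14.54 and 14.69 in WT. The KO libraries agreed closely and all lay above WT 2, which stood above the other 3 WT libraries. S100g alone took 0.590% to 0.642% of all x in KO libraries, against 0.193% to 0.340% in WT libraries. S100g had a log2 fold change of 1.34 (SE 0.17; 95% interval 0.98 to 1.70, limma adjusted p = 3.08e-05), a 2.54-fold higher level in KO. Without WT 2 and KO 4 S100g still passed, as in all 21 alternatives, with log2 fold changes of 1.15 to 1.55.

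The promoter of S100g is shown because it is the gene of the group with the largest increase, and that of Vdr for comparison, as the receptor that fell. Both are RefSeq windows of GRCm38.p6, from 250 bases before to 50 bases after the annotated start, on the - strand, at chrX:162964550-162964849 for S100g and chr15:97908247-97908546 for Vdr. Capitals mark matches to AAGGTCA, the core of the ROR response element bound by the ROR and REV-ERB clock receptors, on either strand.
S100g promoter: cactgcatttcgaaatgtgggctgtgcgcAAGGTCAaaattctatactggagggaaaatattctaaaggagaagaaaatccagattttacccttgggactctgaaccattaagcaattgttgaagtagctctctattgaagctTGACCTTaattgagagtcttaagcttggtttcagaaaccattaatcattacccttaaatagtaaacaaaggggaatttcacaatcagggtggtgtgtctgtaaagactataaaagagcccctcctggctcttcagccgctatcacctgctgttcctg
Vdr promoter: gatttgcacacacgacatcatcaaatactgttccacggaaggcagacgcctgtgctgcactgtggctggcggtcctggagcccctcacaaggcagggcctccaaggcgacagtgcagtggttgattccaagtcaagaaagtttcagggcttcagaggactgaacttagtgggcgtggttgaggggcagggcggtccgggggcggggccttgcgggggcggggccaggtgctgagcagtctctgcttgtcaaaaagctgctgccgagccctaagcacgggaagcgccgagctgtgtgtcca
The S100g window held AAGGTCA on the + strand of the gene starting at -221 and on its other strand starting at -107. Of all 32851 promoter windows, 4.72% held this motif and 0.18% held it at least 2 times. The second share was not among the planned measures and was computed for this motif alone of those searched. It therefore does not measure how unusual the S100g window is. Whether ROR or REV-ERB receptors bind there was not tested. Windows were found for 8 of the 10 genes, 10 windows in all, with 3 for Pth1r; Cyp24a1 and Calb1 had none in the table. The searches, on both strands, were for the E-box CACGTG and the related CACGTT and CACGCG, the D-boxes TTATGTAA and TTACGTAA, AAGGTCA and TAGGTCA, and the DR3 vitamin D element (AGGTCA or GGTTCA repeated after 3 free bases); S100g was the only one of the 8 with a match, while 26.2% of all windows held at least 1. A palindrome such as CACGTG was counted on 1 strand only, and the other AGGTCA-based motifs overlap AAGGTCA in part. In base makeup the Kl window was 67.3% G or C and the S100g window 41.0%, beside a median of 52.7% over all windows.

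Calb1 (chromosome 4, 15881264 to 15908064, + strand) encodes calbindin-D28k, the larger calcium carrier of the distal nephron. Calb1 log2 values were 12.84, 12.14, 12.17, 12.15 and 12.39 in KO, against 11.78, 11.38, 11.98 and 11.92 in WT, again without overlap, with KO 1 highest. The log2 fold change was 0.58 (SE 0.15, limma adjusted p = 0.0138), with 431 ± 106 CPM in KO and 277 ± 56.7 CPM in WT (SD, n = 5 and 4). Of the 21 alternatives the call was lost in 1, with a single prior variance for all genes (adjusted p = 0.0801). Per tag, S100g stood above Calb1 by 3.30, 4.06, 3.97, 4.19 and 3.78 log2 units in KO, against 2.93, 4.11, 2.57 and 2.77 in WT, so that WT 2 lay within the KO range.

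Markers of the distal segments in which the calbindins are found gave smaller medians, with some members as high as Calb1. Their counts stand beside 6.16% higher over all tested genes. The 8 distal convoluted tubule markers summed to 3070 ± 257 CPM in KO and 2790 ± 259 CPM in WT (SD, n = 5 and 4; exact permutation p = 0.127), and 2 of 7 tested rose, with a median log2 fold change of 0.25. Those 2, named after their values were seen, were the thiazide-sensitive cotransporter Slc12a3 at 0.52 (SE 0.16, limma adjusted p = 0.0366) and parvalbumin, Pvalb, at 0.44 (SE 0.12, adjusted p = 0.0231). Leaving out 1 library gave 0 to 2 called, with 0 without KO 4, WT 1 or WT 4. The 2 most abundant did not pass: Fxyd2, a subunit of the sodium pump, had 0.06 (SE 0.12, limma adjusted p = 0.794) and the kinase Wnk1 0.04 (SE 0.19, adjusted p = 0.920). Fxyd2 made up most of the distal convoluted tubule sum, at 2320 ± 174 CPM in KO and 2140 ± 202 CPM in WT (SD, n = 5 and 4). That sum therefore mainly follows Fxyd2 and says little about the other markers. The 11 connecting tubule and principal cell markers summed to 636 ± 151 CPM in KO and 461 ± 77.3 CPM in WT (exact permutation p = 0.0635; SD, n = 5 and 4), and 3 of 11 rose, with a median of 0.29. Among them, and named after their values were seen, were Fxyd4, a sodium pump regulator, at 0.77 (SE 0.14, limma adjusted p = 0.00119) and the sodium channel subunit Scnn1a at 0.63 (SE 0.14, adjusted p = 0.0037), both above the 0.58 of Calb1 and called in all 21 alternatives. The water channel Aqp2 had 0.66 (SE 0.21, limma adjusted p = 0.0386), with KO 5 at 12.18 and the other KO libraries at 10.67 to 11.20 on the log2 scale. Its call was lost in 9 of 21 alternatives, among them without WT 1 (adjusted p = 0.104) and with the replicate block (0.42, adjusted p = 0.0543). The transcription factor Tfcp2l1 had 0.32 (SE 0.14, adjusted p = 0.143). The part of these markers in the calbindin increases was not tested.

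Trpv5 (chromosome 6, 41652173 to 41680769, - strand), the entry channel, was near the floor. Its x was 5.54, 3.72, 2.01, 0.0755 and 3.35 in KO, against 3.49, 4.20, 4.91 and 4.17 in WT. The genotypes overlapped, and KO 4 was close to 0. With no filter the log2 fold change was -0.62 (SE 0.53, limma adjusted p = 0.556), a difference not detectable at so low an x. Why x was so low for Trpv5 was not tested. The related channel Trpv6 was also below the filter, at an x of at most 7.03.

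Slc8a1 (chromosome 17, 81373105 to 81738377, - strand), the sodium-calcium exchanger of the basolateral side, varied more within genotypes than between them. Its log2 values were 11.67, 10.98, 10.99, 10.78 and 10.95 in KO, against 10.54, 10.30, 11.86 and 11.66 in WT. WT 3 and WT 4 lay at the top with KO 1, and WT 1 and WT 2 lay at the bottom. The log2 fold change was -0.01 (SE 0.26, 95% interval -0.56 to 0.53, limma adjusted p = 0.978), and its sign changed with the setting. Exons of Slc8a1 overlap an antisense transcript, AC122399.1, by 296 bases, away from the annotated 3′ end of Slc8a1.

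Casr (chromosome 16, 36493696 to 36562141, - strand), the receptor that lowers calcium reabsorption when blood calcium is high, was low, at 4.40 ± 1.29 CPM in KO and 5.00 ± 2.14 CPM in WT (SD, n = 5 and 4). Its log2 values were 5.42, 6.31, 5.94, 5.33 and 5.69 in KO, against 5.38, 5.43, 6.51 and 6.35 in WT. WT 3 and WT 4 again lay above WT 1 and WT 2. The log2 fold change was -0.18 (SE 0.29, 95% interval -0.80 to 0.44, limma adjusted p = 0.744). The intervals of Slc8a1 and Casr leave room for changes of either sign.

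The summed level of 8 thick ascending limb markers moved with both genes in WT, at 2150, 1910, 3660 and 3420 CPM in WT 1 to 4. In KO 1 to 5 it was 3330, 2590, 2780, 2510 and 2820 CPM. KO 1, highest in Slc8a1, was on top, but Casr did not follow the sum among KO libraries: it was highest in KO 2, at 6.31 on the log2 scale, and second lowest in KO 1, at 5.42. Genes of other segments also separated the WT libraries this way, among them Lrp2, megalin of the proximal tubule, with 13.54, 13.16, 14.47 and 14.41 on the log2 scale in WT 1 to 4. The mean was 2810 ± 318 CPM in KO and 2780 ± 883 CPM in WT (SD, n = 5 and 4; exact permutation p = 0.944). Of these markers 3 of 8 rose and none fell, with a median log2 fold change of 0.24, where 6.16% of all tested genes rose. The abundant Umod, uromodulin, had -0.47 (SE 0.17, limma adjusted p = 0.067), and it was called lower without WT 1 (-0.58, adjusted p = 0.0397), without WT 2 (-0.63, adjusted p = 0.00814) and without WT 2 and KO 4 (-0.61, adjusted p = 0.0216). The sodium-potassium-chloride cotransporter Slc12a1 had 0.33 (SE 0.22, adjusted p = 0.369). For the segments named above for SLC8A1, connecting tubule and principal cell markers summed to 457, 361, 549 and 476 CPM in WT 1 to 4. The distal convoluted tubule markers summed to 2860, 2560, 3120 and 2600 CPM, which did not set WT 4 above WT 1. The part of any of these cells in the spread of Slc8a1 and Casr was not tested.

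**Figure D3:**
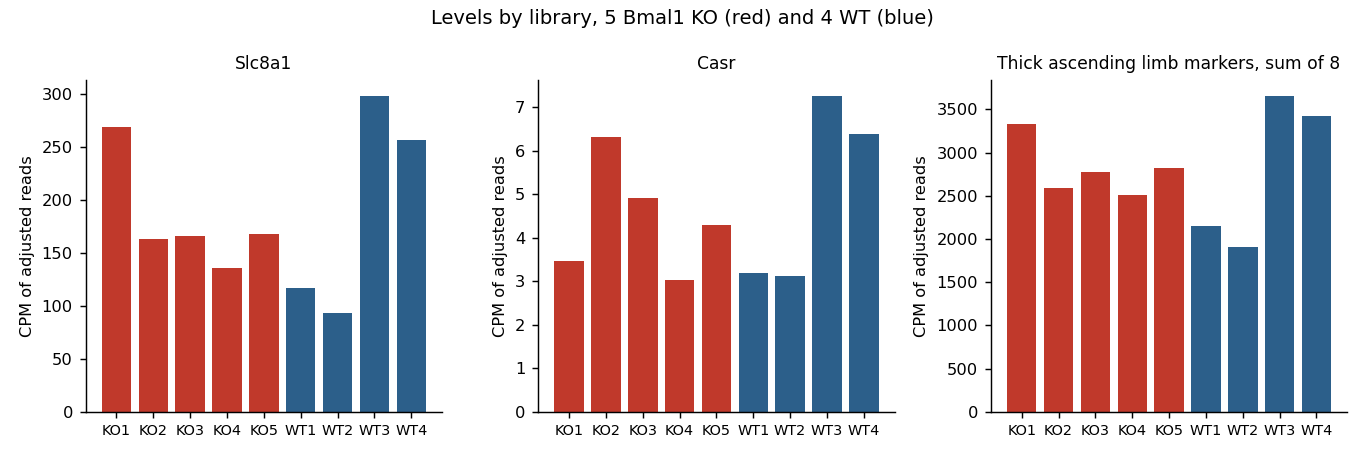
CPM of Slc8a1, Casr and the summed 8 thick ascending limb markers in each library, 5 KO in red and 4 WT in blue, bars starting at 0. WT3 and WT4 stand above WT1 and WT2 in each panel, and the KO libraries lie between 2510 and 3330 CPM for the marker sum.

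**Figure D4:**
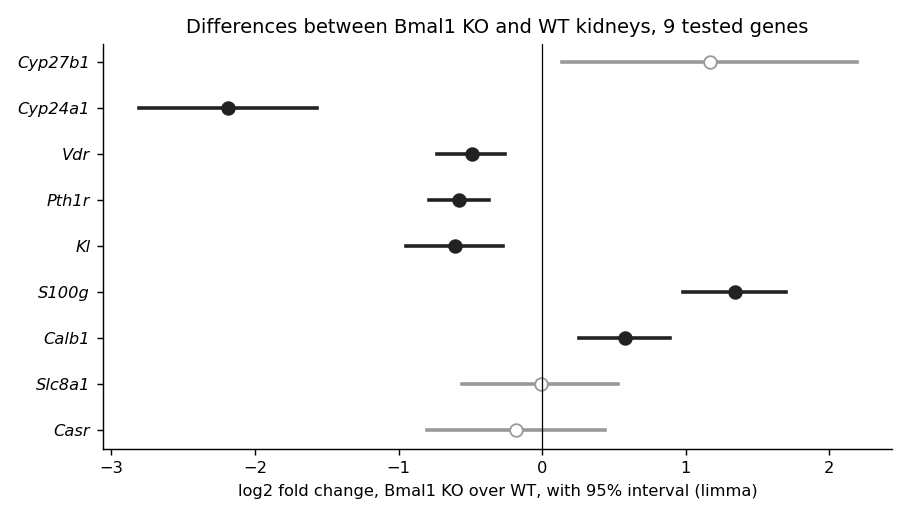
Log2 fold changes, KO over WT, of the 9 tested genes with 95% intervals from limma. Filled points passed an adjusted p under 0.05; Cyp24a1 lies at -2.19 and S100g at 1.34, with Slc8a1 at -0.01.

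Among other genes that take up, activate or respond to vitamin D, 1 of 13 tested rose and 2 fell, with a median log2 fold change of -0.25. Of all tested genes 6.16% rose and 8.20% fell. Gc, the vitamin D binding protein that carries the hormone in plasma, rose by 0.97 (SE 0.18, limma adjusted p = 0.00119), with 90.1 ± 27.9 CPM in KO and 43.5 ± 9.37 CPM in WT (SD, n = 5 and 4). All 5 KO libraries lay above all 4 WT libraries. Cyp27a1, a mitochondrial sterol hydroxylase that can 25-hydroxylate vitamin D, had -0.64 (SE 0.17, limma adjusted p = 0.0144), and Rxra, the partner of VDR on DNA, -0.35 (SE 0.10, adjusted p = 0.0214). Both calls depended on the setting: Cyp27a1 was lost in 3 of 21 alternatives, among them without WT 3 (adjusted p = 0.0588), and Rxra was lost in 7 of 21 alternatives, among them each of the 2 scalings to the library total (adjusted p = 0.0773 and 0.104). Lrp2, megalin, which brings the hormone and its carrier back from the filtrate, had -0.62 (SE 0.22, adjusted p = 0.0735 by limma). It was called lower in 4 of 21 alternatives, among them without WT 2 (-0.87, adjusted p = 0.00546) and with the replicate block (-0.71, adjusted p = 0.0368). The count of 2 fallen genes rests on single libraries: leaving out 1 library gave 0 to 7 of the 13, with 0 without WT 3, 7 without WT 2, and 1 without KO 2 or WT 4. Without WT 2 and KO 4, and likewise with the replicate block, 4 of the 13 fell.

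In PTH and PTHrP signalling 1 of 13 tested genes rose and none fell, with a median of -0.02. The share higher among all tested genes was 6.16%, and 1 of 13 is near it. The riser was Adcy6, an adenylyl cyclase, at 0.50 (SE 0.15, limma adjusted p = 0.0319). It did not pass without WT 2 and KO 4 (adjusted p = 0.0675) and was lost in 9 of 21 alternatives; its 3′ end also lies at or near exons of an antisense transcript. Gnaq had -0.32 (SE 0.12, limma adjusted p = 0.0938), the β-arrestin gene Arrb1 0.30 (SE 0.12, adjusted p = 0.104) and Slc9a3r1, the NHERF1 scaffold of PTH1R, -0.24 (SE 0.10, adjusted p = 0.105). Pthlh and Pth2r were below the filter.

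In FGF23 and Klotho signalling 1 of 9 tested genes fell and none rose, with a median of -0.22. The share lower among all tested genes was 8.20%, and 1 of 9 is near it. Galnt3, the glycosyltransferase known to protect FGF23 from cleavage, had log2 values of 8.29, 8.48, 7.98, 8.40 and 7.86 in KO, against 9.44, 9.26, 9.38 and 9.70 in WT. Every KO library was lower, with a log2 difference of -1.24 (SE 0.14; limma, adjusted p = 1.04e-05), and it passed in all 21 alternatives. The FGF receptors did not pass: Fgfr1, a main partner of Klotho, had -0.33 (SE 0.14, limma adjusted p = 0.134) and Fgfr2 0.49 (SE 0.27, adjusted p = 0.258). Adam17, a protease that sheds Klotho, had -0.18 (SE 0.09, limma adjusted p = 0.225), and its 3′ end lies at or near exons of Iah1.

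Of 17 tested genes of other calcium transport and TRPV5 trafficking, 6 rose and 1 fell, with a median of 0.12, beside 6.16% higher and 8.20% lower over all tested genes. The stanniocalcins, a family of secreted glycoproteins first known in fish for a calcium-lowering hormone, both rose. Stc2 had log2 values of 5.09, 5.49, 5.40, 5.31 and 4.94 in KO, against 2.60, 3.41, 3.14 and 3.24 in WT, a log2 difference of 2.15 (SE 0.36; limma, adjusted p = 0.000471) at a low level of 3.03 ± 0.426 CPM in KO and 0.602 ± 0.141 CPM in WT (SD, n = 5 and 4). Stc2 lay below an x of 10 in every WT library, so it passed the filter only through KO. The filter thus favoured an increase of Stc2, and its call is no separate support for one. Stc1 had 8.51, 7.72, 8.53, 8.44 and 8.03 in KO, against 6.68, 7.55, 6.97 and 6.79 in WT, a log2 difference of 1.25 (SE 0.20; limma, adjusted p = 0.000364). For both, every KO library lay above every WT library.

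S100a10 and Anxa2, whose proteins form a complex that brings TRPV5 to the cell surface, rose by 0.71 (SE 0.13, limma adjusted p = 0.00091) and 0.63 (SE 0.12, adjusted p = 0.0019). Their levels were 186 ± 16.7 and 81.6 ± 8.75 CPM in KO, against 110 ± 18.9 and 50.7 ± 7.35 CPM in WT (SD, n = 5 and 4). Both genes are also expressed outside the distal nephron, in urothelium and endothelium among others. The 8 urothelial markers summed to 102 ± 29.3 CPM in KO and 43.1 ± 4.06 CPM in WT (exact permutation p = 0.0159, adjusted 0.0583; SD, n = 5 and 4), with 6 of 7 tested higher, and the 8 endothelial markers to 460 ± 91.4 CPM in KO and 328 ± 44.4 CPM in WT (exact permutation p = 0.0397, adjusted 0.105), with 2 of 8 higher. Among the urothelial markers, Krt15 lay below an x of 10 in every WT library, and Upk1b in each except WT 2. Both passed the filter only through KO, so the count of 6 was partly set by the filter. Of all tested genes 6.16% were higher. The part of urothelial and endothelial cells in the increase of S100a10 and Anxa2 was not tested.

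The claudins Cldn16 and Cldn19, which together form the paracellular calcium and magnesium path of the thick ascending limb, had 0.67 (SE 0.17, limma adjusted p = 0.0133) and 0.56 (SE 0.16, adjusted p = 0.0272). Without WT 2 and KO 4 neither passed (adjusted p = 0.0548 and 0.0778; Cldn19 was lost in 8 of 21 alternatives), and 4 of the 17 genes then rose. The 1 that fell, named after its value was seen, was the channel Trpv4 at -0.47 (SE 0.14, limma adjusted p = 0.034), a call lost in 13 of 21 alternatives. The 10 without a call lay between -0.24 and 0.46, and among them were the calcium pumps Atp2b1, Atp2b2 and Atp2b4, the TRPV5 activator Klk1, tissue kallikrein, and the trafficking GTPase Rab11a.

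**Figure D5:**
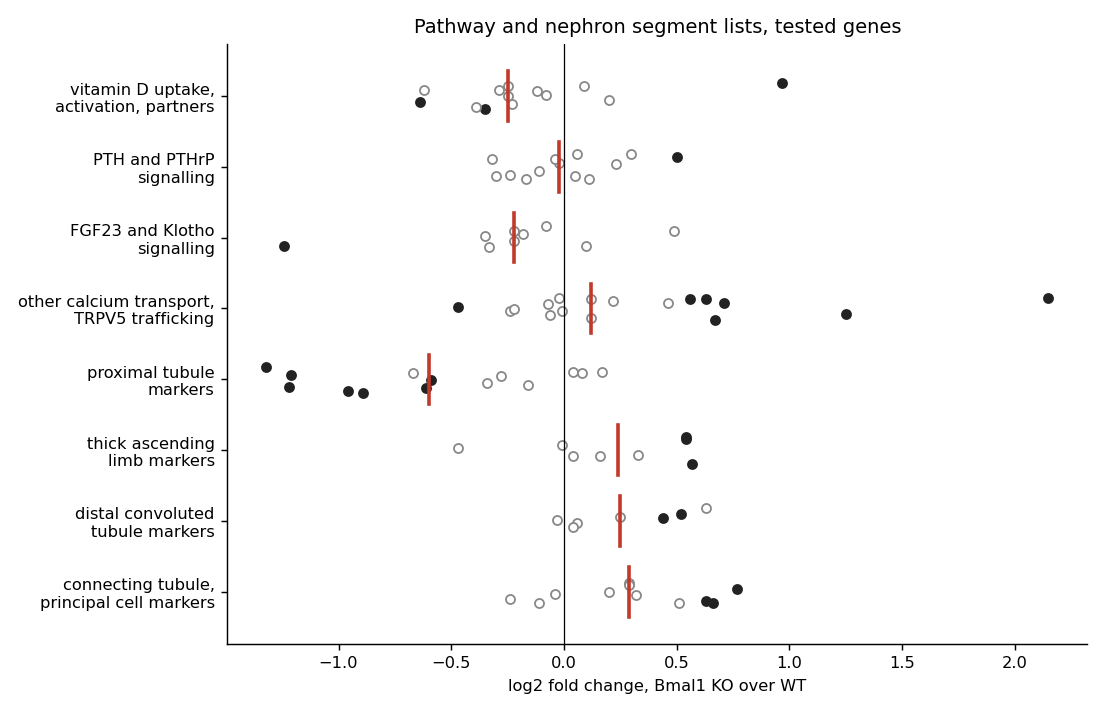
Log2 fold changes, KO over WT, of tested genes in 4 pathway lists and 4 nephron segment marker lists. Each point is a gene, filled where the adjusted p was under 0.05, and red lines are list medians. The proximal tubule markers lie lowest, at a median of -0.60. Stc2, which passed the filter only through KO, lies farthest right, at 2.15.

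By the size of the root-mean-square difference between mean-centred log2 values over the 9 libraries, the profile nearest to Cyp24a1 was that of Alb (0.43), then Odc1 (0.46) and Hsd11b1 (0.47). For S100g it was Cry2 (0.15), then Ano9 (0.20) and Fam166b (0.20). Nearest to Vdr were Tm7sf3 (0.06) and Tmem174 (0.06), and to Pth1r Entpd5 (0.06), Serpinf2 (0.06) and Coasy (0.06). Nearest to Kl were Atp13a3 (0.09), Slc33a1 (0.13) and Lrrc8d (0.13), and to Calb1 Clu (0.10), G6pc (0.12) and Ldoc1l (0.13). Since the measure includes the genotype difference, each member is nearest to genes with a difference of like sign and size.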

How the data were processed

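Kidney RNA from 5 Bmal1 knockout and 4 wild-type C57BL/6 libraries was extracted with Trizol, and libraries were made from 500 ng of total RNA with the Lexogen QuantSeq 3′ kit, per the labels' protocols. Bowtie2, bedtools and build mm10 are named in the submitters' processing notes; the sources used here do not give versions, annotation, normalization, strand setting or the handling of shared reads. The authors deposited 1 table per library of log2 values, log2(x + 1); from the values, x is an adjusted read count and the raw depth is unknown. The members and gene lists were chosen with earlier results of these data known. Symbols listed more than once (79 rows) were kept apart. Genes with x of at least 10 in at least 4 libraries (13481) entered a limma fit (version 3.58.1, R 4.3.3) with genotype as its only term and a prior variance following expression, two-sided, and tested at an adjusted p of 0.05. The fit was tested on simulated data with independent normal noise for each gene. Such data hold no differences shared by a whole library, so the simulation does not speak of them. Fold changes are on the log2(x + 1) scale and understate changes near the floor. Library measures were compared by exact permutation; the 11 measures were Rn45s and 10 marker lists. Named genes were the 10 members, Arntl, up to 6 genes of each pathway list by adjusted p, the 2 most abundant markers of each nephron segment list described, and the 3 nearest profiles of each called member; not every gene so named is reported here. Positions came from GENCODE M21 on GRCm38, the assembly of mm10, and promoters from RefSeq. Alternatives covered left-out libraries, a replicate block, pseudocount, filter, scaling, Rn45s as a covariate and the prior variance.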

Additional observations from a re-analysis of the deposited data

Results flagged for a closer look

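In 42 groups of libraries (10 genes and 11 library measures in each genotype), 2 had a library far from the others, where chance flags about 1 group in 20. Slc8a1 was at 11.667 on the log2 scale in KO 1, with the other 4 KO libraries at 10.78 to 10.99. Red blood cell markers summed to 15500 CPM in WT 2, with 6210 to 7320 CPM in the other 3 WT libraries; in KO the sum was 17200 ± 10900 CPM (SD, n = 5), with 35600 CPM in KO 4, against 8920 ± 4380 CPM in WT (SD, n = 4; exact permutation p = 0.167).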

How the results depend on the processing

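Over the 21 alternatives, Cyp24a1, Vdr, Pth1r and S100g kept direction and call. All genes called ranged over 1312 to 2277, against 1937 in the fit reported. With 1 prior variance for all genes only 1 of the 10 genes was called higher; leaving out 1 library gave 2 to 3 higher and 3 to 4 lower, and leaving out WT 2 and KO 4 gave 3 higher and 4 lower. The sign of Slc8a1 changed: leaving out 1 library gave -0.28 to 0.24, the replicate block 0.02, quantile normalization 0.07, scaling to the library total 0.04, the same without Rn45s 0.09, and Rn45s as a covariate 0.25. Leaving out 1 library gave -0.36 to 0.02 for Casr, -0.01 to 0.11 for Fxyd2, -0.16 to 0.24 for Wnk1 and a KO minus WT difference of -270 to 313 CPM for the thick ascending limb markers; without WT 2 and KO 4, Wnk1 was at -0.12 and those markers at -196 CPM. The cause was not tested. Of 588 counts over pathway and marker lists, 525 were scored as unchanged, either within 1.5 times the reported count or 0 in both fits. Many of the reported counts were 0, so this share says little about how steady the others were. Without WT 2 and KO 4, all 7 red blood cell markers were called higher. Those 2 libraries held the highest red blood cell sums of their genotypes, 15500 and 35600 CPM. Leaving them out left 6210 to 7320 CPM in WT and 8990 to 17500 CPM in KO, so the exclusion itself changes this comparison. With the replicate number as a block (KO 5 has no partner and was left out), 1739 genes were called, with 2 of the 10 genes higher and 4 lower. Deviations of same-numbered libraries correlated at -0.007 to 0.151 and 3 of 8 libraries correlated best with their own number. The labels do not say that a number marks a shared litter or day, and these correlations cannot settle whether it does. At an x of a few reads, as for Trpv5, no difference was detectable. Arntl was not called without WT 3 (adjusted p = 0.0552) or with Rn45s as a covariate (0.0526), all by limma.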

Other observations

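The 10 genes were not spread evenly over the libraries. KO 1 held the highest KO value for 6 of them and the lowest for none, and KO 4 the lowest for 5. Among WT libraries, WT 2 held the lowest value for 5 of the 10 and WT 3 the highest for 5. KO 4 and WT 2 also each held the highest value of their genotype for 2. The share of the ribosomal RNA gene Rn45s followed this order in part. It was 6.83% in KO 1, the lowest of the KO libraries, 14.4% in KO 4, the highest of them, and 11.3% in WT 2, the highest of the WT libraries. But WT 1, with the lowest share at 5.07%, held the highest WT value for only 1 gene and the lowest for 2, and WT 3 had 6.17%. The part of Rn45s in this order was not tested.

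Markers of other cell types gave these counts, beside 6.16% higher and 8.20% lower over all tested genes. Of 8 stromal markers (fibroblast, pericyte, smooth muscle) 2 rose, with sums of 273 ± 33.0 CPM in KO and 176 ± 5.28 CPM in WT (SD, n = 5 and 4; exact permutation p = 0.0159, adjusted 0.0583). Of 7 intercalated cell markers 3 rose, with sums of 309 ± 45.7 CPM in KO and 240 ± 25.0 CPM in WT (exact permutation p = 0.0476, adjusted 0.105; SD, n = 5 and 4). Of 8 macrophage markers 1 fell, Csf1r, named after its value was seen (-0.48, SE 0.11, limma adjusted p = 0.00436), with sums of 186 ± 26.7 CPM in KO and 198 ± 18.3 CPM in WT (exact permutation p = 0.429; SD, n = 5 and 4).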
